A study of Drosophila melanogaster with 12 samples.

Results

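The genes described here encode the neuropeptide and glycoprotein hormone receptors of Drosophila melanogaster, 38 genes taken by FlyBase symbol from a fixed list of receptors with a known or assigned peptide or protein hormone. All 38 were found among the 12610 genes of the deposited table. The list was drawn up by receptor identity, with earlier results of these data known. The RNA came from FACS-sorted cells of dissociated larval brains, taken early in instar 3. The 4 groups were GFP-positive cells of rfx knock-out (KO) brains, GFP-positive cells of wild-type (WT) brains, GFP-negative cells of KO brains and GFP-negative cells of WT brains, with 3 libraries each. The study is titled as one of neurons that express Rfx. The labels give neither the driver of GFP, which both genotypes carry, nor the knock-out allele. They do not say how many animals went into a library, nor that replicates are separate dissections. The p-values thus measure how libraries vary, and this may be technical.

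Peptides released by neurons and endocrine cells act at a distance through G protein-coupled receptors, so the receptor genes a cell transcribes set which peptides it can read. Most insect peptide receptors belong to the rhodopsin-like class, a few belong to the secretin-like class (class B), and the glycoprotein and relaxin-type hormone receptors carry a large leucine-rich ectodomain. In the larval brain these receptors are known for tuning feeding, growth, hormone release, locomotion and ecdysis. Rfx is a transcription factor known mainly for its control of cilium genes.

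Between 20301256 and 29771321 reads were counted in each library. All levels below are the deposited normalised counts, on a scale close to CPM. Means are given ± SD of 3 libraries, and values by library run in the order of replicates 1, 2 and 3. Rfx itself averaged 1126 ± 169.8 in KO GFP-positive, 2793 ± 217 in WT GFP-positive, 53.0 ± 1.3 in KO GFP-negative and 73.7 ± 0.358 in WT GFP-negative cells, so reads of the gene were present in the KO libraries. The share of rRNA reads was 2.54% in replicate 3 of KO GFP-positive cells, 12.2% in replicate 2 of WT GFP-positive cells, and 0.289% to 0.976% elsewhere. The labels call the cells neurons, and all 8 neuron markers measured were well detected. In GFP-positive against GFP-negative cells 7 of the 8 were called higher in KO and 7 in WT (with edgeR, 7 and 3), elav being the exception in both, at 596 ± 29.2 in KO GFP-positive, 584 ± 73.9 in WT GFP-positive, 628 ± 64.4 in KO GFP-negative and 659 ± 44.5 in WT GFP-negative cells. Among all tested genes 23.6% were called higher and 12.9% lower in KO, and 25.7% and 12.3% in WT. With edgeR 19.0% were called higher in KO and 19.7% in WT. The summed value of the 8 neuron markers was 7936 to 10644 in KO GFP-positive, 8474 to 10496 in WT GFP-positive, 3966 to 4872 in KO GFP-negative and 4217 to 4939 in WT GFP-negative libraries. Of 8 neuroblast and progenitor genes, wor, ase, mira, dpn, insc and grh were lower and pros and brat higher in GFP-positive cells of both genotypes. Among them wor averaged 7.33 ± 1.66 in KO GFP-positive, 5.87 ± 0.228 in WT GFP-positive, 564 ± 45.1 in KO GFP-negative and 443 ± 33.0 in WT GFP-negative cells. The part of this difference in the receptor values was not tested. In a bulk library, fewer cells of a type and less RNA per cell cannot be told apart.

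The receptors spanned a wide range of levels (plot of all receptor genes by library). Per kilobase of exon, CCKLR-17D3, a receptor for the satiety peptides called drosulfakinins, was the highest of the 38 in all 4 groups, at 43.8 ± 10.9 in KO GFP-positive, 55.6 ± 1.14 in WT GFP-positive, 16 ± 2.67 in KO GFP-negative and 12.4 ± 1.36 in WT GFP-negative cells. On the same per-kilobase scale it was followed in WT GFP-positive cells by Dh44-R2 at 35.7 ± 0.993, SPR at 24.4 ± 13.5, TkR86C at 22.6 ± 14.5 and AstA-R1 at 21.8 ± 13.9. In KO GFP-positive cells the next 4 per kilobase were NPFR at 22.1 ± 11.3, SPR at 21.3 ± 8.91, CCHa2-R at 20.8 ± 9.93 and AstA-R1 at 18.8 ± 8.62. The order is loose: of the 37 pairs of neighbours in it, the libraries of 36 overlapped in KO GFP-positive, 35 in WT GFP-positive, 36 in KO GFP-negative and 36 in WT GFP-negative cells. At the top, CCKLR-17D3 lay above the next receptor in every library of WT GFP-positive cells (Dh44-R2) and of both GFP-negative groups (Dh44-R1). In KO GFP-positive cells it overlapped with NPFR.

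At the low end, AkhR, the receptor of the adipokinetic hormone that acts on fat body, reached a value of 1 in 1 of the 12 libraries. That library was WT GFP-negative replicate 1, at 2.35, and AkhR alone of the 38 was left untested. PK1-R reached 1 in 9 libraries and Lgr1 in 10, and the other 35 receptors in all 12. The reads behind a single value ran from 4 for AkhR to 3404 for CCKLR-17D3, which sets the precision at the low end.

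**Figure D1:**
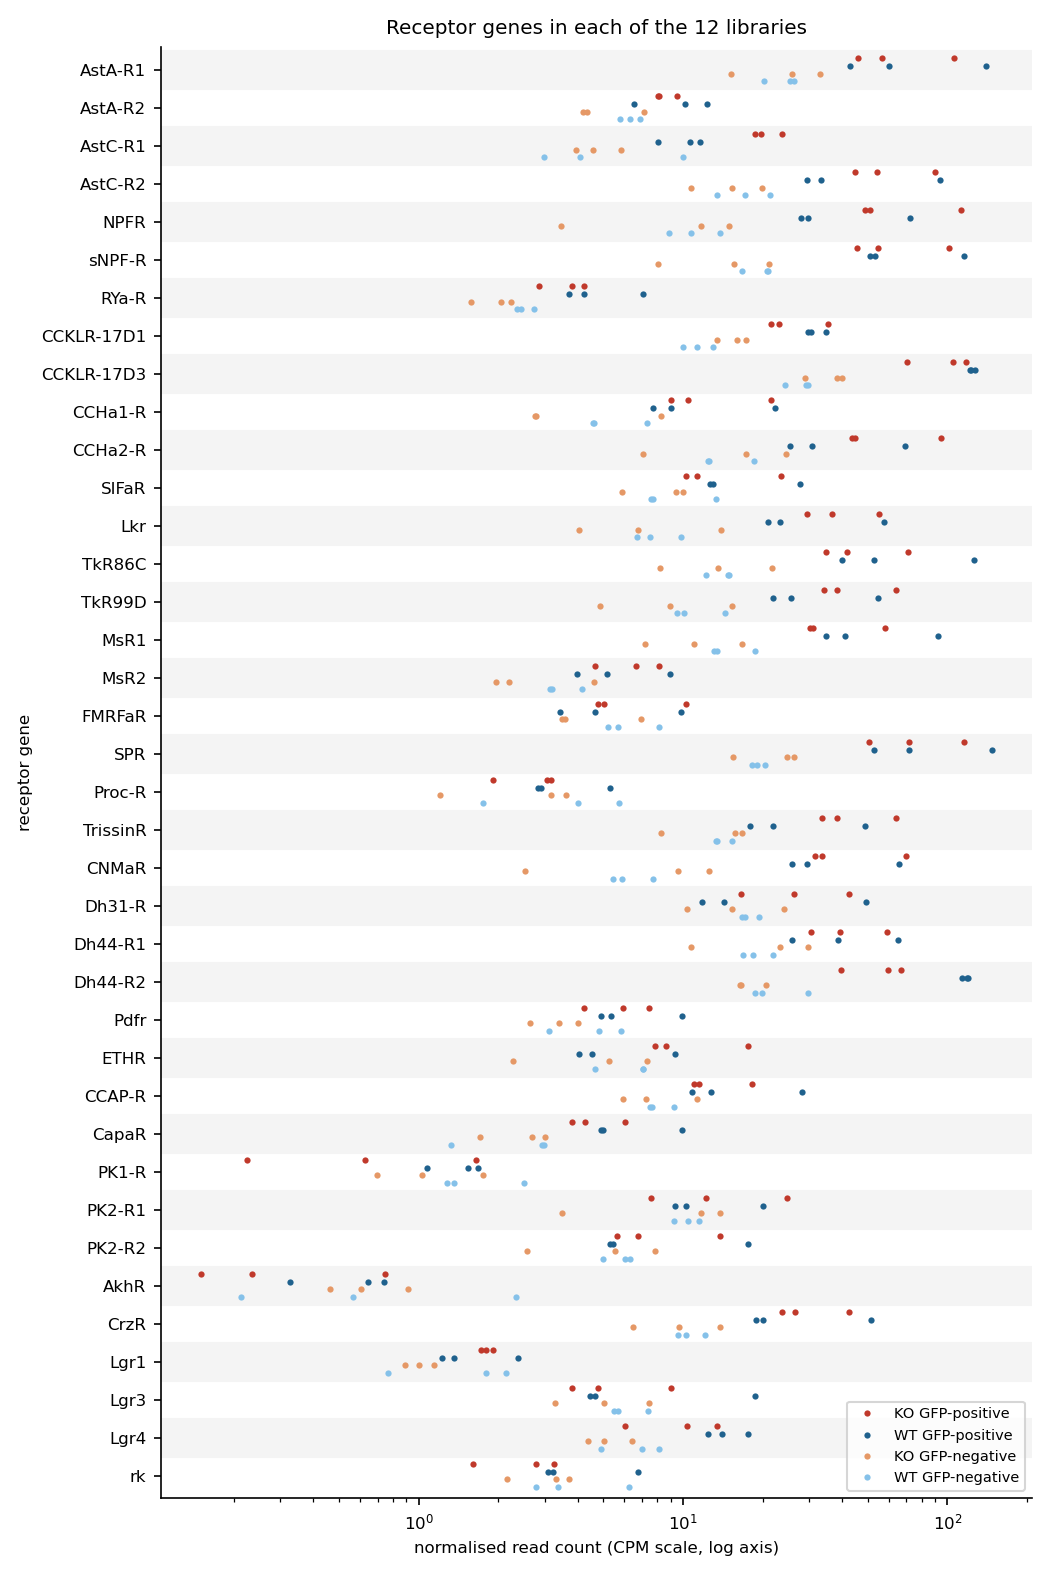
Normalised read count (CPM scale, log axis) of each of the 38 receptor genes, with 1 point per library and the groups KO GFP-positive, WT GFP-positive, KO GFP-negative and WT GFP-negative from top to bottom within each gene. GFP-positive points lie to the right for most genes, and AkhR, PK1-R and Lgr1 sit near or below 1.

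GFP-positive cells held more receptor RNA than GFP-negative cells in both genotypes. Of the 37 receptors tested, 24 were higher in KO GFP-positive than in KO GFP-negative cells and 0 were lower (limma, adjusted p under 0.05). Of all 9912 genes tested there, 23.6% were called higher and 12.9% lower. In WT, 21 of 37 were higher and 0 lower, where 25.7% of all tested genes were higher and 12.3% lower. The median log2 change of the receptors was 1.04 in KO and 0.99 in WT, while that of all tested genes was 0.07 in KO and 0.09 in WT. Changes here are log2 differences, GFP-positive over GFP-negative, of value + 1, given ± SE, and this scale understates the change of low genes. The libraries did not overlap for 27 receptors in KO (30.3% of all tested genes were higher without overlap) and 22 in WT (33.0%). The summed value of the 38 receptors was 860 to 1570.3 in KO GFP-positive against 243 to 478 in KO GFP-negative libraries, and 859.9 to 1765 in WT GFP-positive against 352 to 408 in WT GFP-negative libraries. The call was shared by 19 receptors, 79.2% of the KO calls and 90.5% of the WT calls.

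AstA-R2, CCHa1-R, ETHR, MsR2 and TrissinR were called in KO alone and CCAP-R and CapaR in WT alone. A test of the difference between genotypes (the interaction of genotype and GFP in limma) called 0 of 37, with 5 at an unadjusted p under 0.05, where 0.555% of all tested genes were called. On recovered reads edgeR and DESeq2 called 0 of 37 too, where they called 0.535% and 1.17% of all tested genes. With the runs of title numbers as a replicate block 0 of 37 were called (1.02% of all tested genes). None of these 7 receptors is thus shown to differ between genotypes. The block called 25 receptors higher in KO and 24 in WT and none lower, where 28.6% and 30.6% of all tested genes were higher and 15.3% and 15.2% lower. It lost no call and added CCAP-R in KO and CCHa1-R, SIFaR and TrissinR in WT. With edgeR 18 receptors were higher in KO and 18 in WT, where 19.0% and 19.7% of all tested genes were higher. With DESeq2 they were 23 in KO and 21 in WT, where 21.8% and 20.7% of all tested genes were higher, and neither tool called a receptor lower. Of all tested genes, edgeR called 16.9% lower in KO and 15.7% in WT, and DESeq2 18.7% and 19.2%. Leaving out each library in turn, 16 of the 24 KO calls and 13 of the 21 WT calls held every time. Without KO GFP-positive replicate 2 or KO GFP-negative replicate 3 the KO count was 16, and without WT GFP-positive replicate 2 the WT count was 14. Without both rRNA-rich libraries the WT count was 12. Shares of all tested genes called in fits without libraries are not given here. Within lanes, all 24 KO calls and all 21 WT calls were higher on both lane 6 and lane 7. The lanes hold the same libraries that gave the calls, so this adds no separate support.

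**Figure D2:**
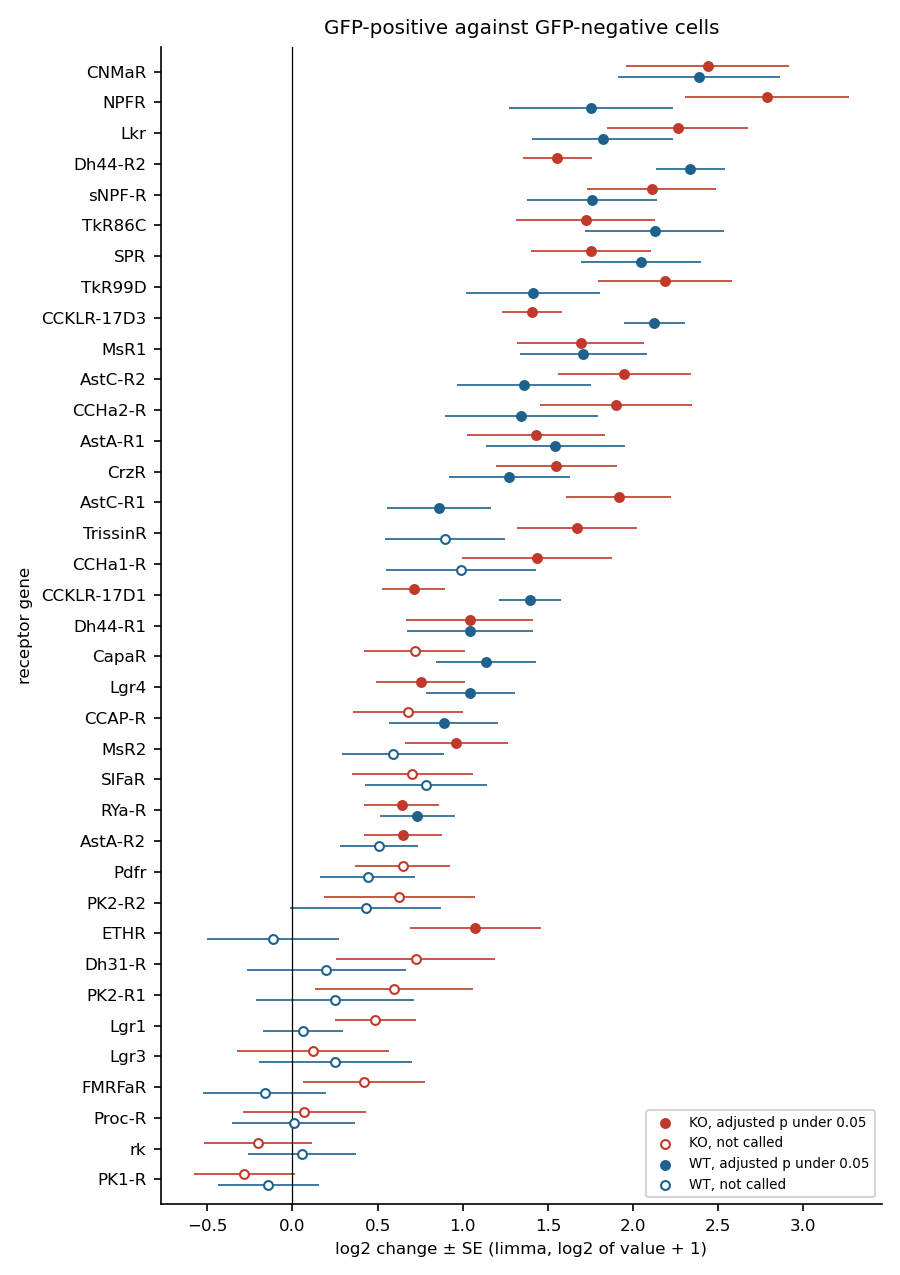
Difference between GFP-positive and GFP-negative cells in KO (red, upper) and WT (blue, lower) for the 37 tested receptors, as log2 change ± SE from limma, with filled points at an adjusted p under 0.05. The filled points all lie right of 0, up to 2.79 for NPFR in KO, and the open points run from -0.28 for PK1-R in KO to 0.99 for CCHa1-R in WT.

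Of the receptors of feeding and growth peptides, 8 of 9 were called higher in KO and 7 of 9 in WT, where 23.6% and 25.7% of all tested genes were. NPFR, the receptor of neuropeptide F, which promotes feeding in larvae (3R, 6187315 to 6195403, plus strand in BDGP6), stood at 49.0, 113 and 51.0 in KO GFP-positive libraries and 29.8, 72.2 and 28.0 in WT GFP-positive libraries. In GFP-negative libraries NPFR stood at 11.7, 14.9 and 3.44 in KO and 10.7, 13.8 and 8.84 in WT. NPFR differed by 2.79 ± 0.48 in KO (adjusted p = 0.000658) and 1.75 ± 0.48 in WT (adjusted p = 0.0121) on the log2 scale, the largest change of any receptor in KO. GFP-positive libraries lay above GFP-negative libraries in both genotypes without overlap, replicate 2 being the highest of each GFP-positive group. The WT call was lost without WT GFP-positive replicate 2 (adjusted p = 0.0551).

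The short neuropeptide F receptor sNPF-R, linked to food intake and growth, stood at 45.7, 102 and 54.9 in KO GFP-positive libraries and 53.4, 116 and 51.0 in WT GFP-positive libraries. In GFP-negative libraries sNPF-R stood at 15.6, 21.2 and 8.02 in KO and 21.0, 20.9 and 16.7 in WT. sNPF-R differed by 2.11 ± 0.38 in KO (adjusted p = 0.000886) and 1.76 ± 0.38 in WT (adjusted p = 0.00291) on the log2 scale and its GFP-positive libraries were above the GFP-negative ones in every case. Lkr, the leucokinin receptor of fluid balance and meal size, stood at 36.7, 55.2 and 29.5 in KO GFP-positive libraries and 20.9, 57.6 and 23.3 in WT GFP-positive libraries. In GFP-negative libraries Lkr stood at 6.76, 13.9 and 4.05 in KO and 7.47, 9.81 and 6.70 in WT. Lkr differed by 2.26 ± 0.42 in KO (adjusted p = 0.00104) and 1.82 ± 0.42 in WT (adjusted p = 0.00421) on the log2 scale, again without overlap. As ratios of means Lkr was 4.91-fold higher in KO GFP-positive cells, or 7.48-fold without KO GFP-negative replicate 2, and 4.24-fold higher in WT, or 2.76-fold without WT GFP-positive replicate 2.

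The drosulfakinin receptors CCKLR-17D1 and CCKLR-17D3 lie 37.91 kb apart (chromosome X, 18707494 to 18726572, minus strand, and X, 18764483 to 18774027, minus strand). CCKLR-17D3 stood at 118, 105 and 70.6 in KO GFP-positive libraries and 122, 127 and 123 in WT GFP-positive libraries. In GFP-negative libraries CCKLR-17D3 stood at 40.1, 38.2 and 29.0 in KO and 24.2, 29.7 and 29.3 in WT. CCKLR-17D3 differed by 1.41 ± 0.18 in KO (adjusted p = 5.27e-05) and 2.12 ± 0.18 in WT (adjusted p = 1.37e-06) on the log2 scale, with the smallest adjusted p of any receptor in both genotypes. Its 3 WT GFP-positive libraries lay close together, and replicate 2 did not stand apart. CCKLR-17D1 stood at 23.1, 35.4 and 21.5 in KO GFP-positive libraries and 30.6, 34.7 and 29.6 in WT GFP-positive libraries. In GFP-negative libraries CCKLR-17D1 stood at 17.3, 16.1 and 13.5 in KO and 13, 11.3 and 10.01 in WT. CCKLR-17D1 differed by 0.71 ± 0.18 in KO (adjusted p = 0.00898) and 1.40 ± 0.18 in WT (adjusted p = 6.79e-05) on the log2 scale. Both receptors were higher in every GFP-positive library than in any GFP-negative library of the same genotype. Dsk, which encodes the drosulfakinins, averaged at most 0.441 in any group.

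The CCHamide receptors were higher too. CCHa2-R, known in the brain for relaying a nutrient-dependent signal to insulin-producing cells, stood at 43.4, 94.6 and 44.8 in KO GFP-positive libraries and 25.3, 69.0 and 30.9 in WT GFP-positive libraries. In GFP-negative libraries CCHa2-R stood at 17.3, 24.5 and 7.06 in KO and 12.6, 18.6 and 12.5 in WT. CCHa2-R differed by 1.90 ± 0.45 in KO (adjusted p = 0.00538) and 1.34 ± 0.45 in WT (adjusted p = 0.032) on the log2 scale, without overlap, and the WT call was lost without WT GFP-negative replicate 1 (adjusted p = 0.0899) or WT GFP-positive replicate 2 (adjusted p = 0.138) or WT GFP-negative replicate 3 (adjusted p = 0.0925). CCHa1-R stood at 8.98, 21.6 and 10.4 in KO GFP-positive libraries and 7.72, 22.3 and 9.03 in WT GFP-positive libraries. In GFP-negative libraries CCHa1-R stood at 2.78, 8.24 and 2.75 in KO and 4.57, 7.30 and 4.63 in WT. CCHa1-R differed by 1.43 ± 0.44 in KO (adjusted p = 0.0227) and 0.99 ± 0.44 in WT (adjusted p = 0.0965) on the log2 scale, its libraries did not overlap in KO or in WT, and the KO call was lost without KO GFP-negative replicate 1 (adjusted p = 0.0871) or KO GFP-positive replicate 2 (adjusted p = 0.102) or KO GFP-negative replicate 3 (adjusted p = 0.0892). With the title runs as a replicate block it was also called in WT (adjusted p = 0.000681). Its KO ratio of means was 2.98, or 4.95 without KO GFP-negative replicate 2, the highest library of that group.

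RYa-R, the RYamide receptor, was a low gene that stood at 2.84, 4.23 and 3.80 in KO GFP-positive libraries and 3.70, 7.06 and 4.24 in WT GFP-positive libraries. In GFP-negative libraries RYa-R stood at 1.57, 2.24 and 2.05 in KO and 2.74, 2.35 and 2.45 in WT. RYa-R differed by 0.64 ± 0.22 in KO (adjusted p = 0.0369) and 0.73 ± 0.22 in WT (adjusted p = 0.019) on the log2 scale, and the libraries did not overlap in either genotype. Its KO call was lost without KO GFP-negative replicate 1 or KO GFP-positive replicate 2 or WT GFP-negative replicate 3 or KO GFP-positive replicate 3 or KO GFP-negative replicate 3 (adjusted p = 0.0513 to 0.137) and its WT call without WT GFP-positive replicate 2 (adjusted p = 0.0963) or WT GFP-negative replicate 3 (adjusted p = 0.055). SIFaR, the receptor of the brain peptide SIFamide, averaged 15 ± 7.38 in KO GFP-positive, 17.8 ± 8.55 in WT GFP-positive, 8.43 ± 2.23 in KO GFP-negative and 9.54 ± 3.27 in WT GFP-negative cells and was called in neither genotype. Its log2 change was 0.70 ± 0.36 in KO (adjusted p = 0.144) and 0.78 ± 0.36 in WT (adjusted p = 0.103), its libraries did not overlap in KO, and with the replicate block it was called in WT (adjusted p = 0.0356).

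All 4 allatostatin receptors were called higher in KO and 3 of 4 in WT, where 23.6% and 25.7% of all tested genes were. AstA-R1, a relative of vertebrate galanin receptors, stood at 56.7, 106 and 46.1 in KO GFP-positive libraries and 42.9, 139 and 60.2 in WT GFP-positive libraries. In GFP-negative libraries AstA-R1 stood at 25.9, 32.9 and 15.2 in KO and 25.3, 26.2 and 20.2 in WT. AstA-R1 differed by 1.43 ± 0.41 in KO (adjusted p = 0.015) and 1.54 ± 0.41 in WT (adjusted p = 0.00958) on the log2 scale, without overlap. Its WT ratio of means was 3.38, or 2.15 without WT GFP-positive replicate 2, and the KO call was lost without KO GFP-positive replicate 2 (adjusted p = 0.0705) or KO GFP-negative replicate 3 (adjusted p = 0.0705). AstA-R2 stood at 8.05, 9.48 and 8.11 in KO GFP-positive libraries and 10.2, 12.3 and 6.539 in WT GFP-positive libraries. In GFP-negative libraries AstA-R2 stood at 7.10, 4.33 and 4.19 in KO and 6.88, 6.31 and 5.76 in WT. AstA-R2 differed by 0.65 ± 0.23 in KO (adjusted p = 0.0417) and 0.51 ± 0.23 in WT (adjusted p = 0.0984) on the log2 scale; its libraries were apart in KO and overlapped in WT. The KO call on AstA-R2 was lost without any 1 of 8 libraries, those other than KO GFP-negative replicate 1, WT GFP-positive replicate 2, WT GFP-positive replicate 3 and WT GFP-negative replicate 1 (adjusted p = 0.051 to 0.149), and a WT call was gained without WT GFP-positive replicate 3 (adjusted p = 0.0219).

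AstC-R1 and AstC-R2, relatives of vertebrate somatostatin receptors, lie 57.7 kb apart (AstC-R2 on 3L, 18485137 to 18502557, minus strand, and AstC-R1 on 3L, 18560258 to 18576326, plus strand). AstC-R2 stood at 44.9, 89.9 and 54.2 in KO GFP-positive libraries and 33.3, 93.7 and 29.5 in WT GFP-positive libraries. In GFP-negative libraries AstC-R2 stood at 15.4, 19.9 and 10.7 in KO and 17.2, 21.3 and 13.5 in WT. AstC-R2 differed by 1.95 ± 0.39 in KO (adjusted p = 0.00193) and 1.36 ± 0.39 in WT (adjusted p = 0.0155) on the log2 scale, without overlap, and the WT call was lost without WT GFP-positive replicate 2 (adjusted p = 0.0519) or WT GFP-negative replicate 3 (adjusted p = 0.0629). The WT ratio of means was 3.01, or 1.81 without WT GFP-positive replicate 2. AstC-R1 stood at 23.7, 19.7 and 18.7 in KO GFP-positive libraries and 10.6, 8.04 and 11.6 in WT GFP-positive libraries. In GFP-negative libraries AstC-R1 stood at 5.83, 4.58 and 3.92 in KO and 9.98, 2.99 and 4.06 in WT. AstC-R1 differed by 1.91 ± 0.31 in KO (adjusted p = 0.000379) and 0.86 ± 0.31 in WT (adjusted p = 0.0427) on the log2 scale, and its libraries were apart in KO but not in WT, where WT GFP-negative replicate 1 lay above WT GFP-positive replicate 2. Its WT call was lost without any 1 of 9 libraries, those other than KO GFP-negative replicate 3, WT GFP-positive replicate 2 and WT GFP-negative replicate 1 (adjusted p = 0.0512 to 0.147), and its WT ratio of means was 1.78, or 2.86 without WT GFP-negative replicate 1.

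Of 5 tachykinin, myosuppressin and FMRFamide receptors, 4 were called higher in KO and 3 in WT, where 23.6% and 25.7% of all tested genes were. TkR86C, which is activated by natalisin and tachykinins, stood at 34.7, 70.8 and 41.6 in KO GFP-positive libraries and 39.8, 126 and 52.7 in WT GFP-positive libraries. In GFP-negative libraries TkR86C stood at 13.6, 21.8 and 8.15 in KO and 15, 14.8 and 12.2 in WT. TkR86C differed by 1.72 ± 0.41 in KO (adjusted p = 0.00554) and 2.13 ± 0.41 in WT (adjusted p = 0.00133) on the log2 scale, without overlap, and the WT ratio of means was 5.21, or 3.30 without WT GFP-positive replicate 2. TkR99D, the main tachykinin receptor, stood at 34.1, 63.9 and 38.4 in KO GFP-positive libraries and 22, 54.7 and 25.5 in WT GFP-positive libraries. In GFP-negative libraries TkR99D stood at 8.95, 15.3 and 4.84 in KO and 9.50, 14.4 and 10.1 in WT. TkR99D differed by 2.19 ± 0.39 in KO (adjusted p = 0.000883) and 1.41 ± 0.39 in WT (adjusted p = 0.0129) on the log2 scale, also without overlap. The WT call was lost without WT GFP-positive replicate 2 (adjusted p = 0.0582).

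The myosuppressin receptors MsR1 and MsR2 lie 21.75 kb apart on 3L. MsR1 stood at 30.9, 58.3 and 30.4 in KO GFP-positive libraries and 41.1, 92.0 and 34.7 in WT GFP-positive libraries. In GFP-negative libraries MsR1 stood at 11.1, 16.8 and 7.19 in KO and 13.4, 18.7 and 13.1 in WT. MsR1 differed by 1.69 ± 0.37 in KO (adjusted p = 0.00359) and 1.71 ± 0.37 in WT (adjusted p = 0.00323) on the log2 scale, without overlap in either genotype. MsR2 stood at 4.64, 8.15 and 6.62 in KO GFP-positive libraries and 5.17, 8.92 and 3.98 in WT GFP-positive libraries. In GFP-negative libraries MsR2 stood at 2.19, 4.62 and 1.96 in KO and 3.14, 3.20 and 4.14 in WT. MsR2 differed by 0.96 ± 0.30 in KO (adjusted p = 0.0247) and 0.59 ± 0.30 in WT (adjusted p = 0.143) on the log2 scale; its libraries were apart in KO and overlapped in WT. The KO call was lost without KO GFP-negative replicate 1 or KO GFP-positive replicate 2 or KO GFP-positive replicate 3 or KO GFP-negative replicate 3 (adjusted p = 0.0544 to 0.102). FMRFaR, the FMRFamide receptor, averaged 6.69 ± 3.1 in KO GFP-positive, 5.96 ± 3.38 in WT GFP-positive, 4.68 ± 1.98 in KO GFP-negative and 6.35 ± 1.58 in WT GFP-negative cells and was called in neither genotype.

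Among the other rhodopsin-like receptors, 3 of 4 were called higher in KO and 2 of 4 in WT, where 23.6% and 25.7% of all tested genes were. SPR, the receptor of sex peptide and of myoinhibitory peptides, stood at 71.7, 116 and 50.8 in KO GFP-positive libraries and 53.0, 148 and 71.7 in WT GFP-positive libraries. In GFP-negative libraries SPR stood at 26.3, 24.6 and 15.5 in KO and 20.5, 19.0 and 18.2 in WT. SPR differed by 1.75 ± 0.35 in KO (adjusted p = 0.00194) and 2.05 ± 0.35 in WT (adjusted p = 0.000599) on the log2 scale, without overlap. Of its exon bases 26.8% are shared with frma on the other strand, which averaged at most 3.43 in any group, so reads of the pair could not be told apart in libraries that keep no strand. CNMaR, the CNMamide receptor, stood at 33.7, 69.9 and 31.7 in KO GFP-positive libraries and 26.0, 65.8 and 29.5 in WT GFP-positive libraries. In GFP-negative libraries CNMaR stood at 9.57, 12.5 and 2.53 in KO and 5.45, 7.68 and 5.87 in WT. CNMaR differed by 2.44 ± 0.48 in KO (adjusted p = 0.00162) and 2.39 ± 0.48 in WT (adjusted p = 0.00175) on the log2 scale, the largest change of any receptor in WT, and its groups did not overlap. TrissinR stood at 33.7, 63.9 and 38.3 in KO GFP-positive libraries and 18, 49.0 and 21.9 in WT GFP-positive libraries. In GFP-negative libraries TrissinR stood at 15.7, 16.7 and 8.24 in KO and 13.4, 15.3 and 13.4 in WT. TrissinR differed by 1.67 ± 0.35 in KO (adjusted p = 0.00265) and 0.89 ± 0.35 in WT (adjusted p = 0.0635) on the log2 scale, and its groups did not overlap in either genotype. A WT call was gained with the replicate block (adjusted p = 0.00761) and without WT GFP-positive replicate 1 (adjusted p = 0.0298) or KO GFP-positive replicate 2 (adjusted p = 0.0499) or KO GFP-negative replicate 3 (adjusted p = 0.0457). Proc-R, the receptor of proctolin, averaged 2.71 ± 0.699 in KO GFP-positive, 3.68 ± 1.41 in WT GFP-positive, 2.67 ± 1.28 in KO GFP-negative and 3.83 ± 1.99 in WT GFP-negative cells and was called in neither genotype.

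In the secretin-like class both receptors of diuretic hormone 44, a peptide related to vertebrate corticotropin-releasing factor, were called in both genotypes. Dh44-R2 stood at 59.7, 67.0 and 39.7 in KO GFP-positive libraries and 119, 113 and 118 in WT GFP-positive libraries. In GFP-negative libraries Dh44-R2 stood at 20.7, 16.4 and 16.5 in KO and 29.8, 18.7 and 19.9 in WT. Dh44-R2 differed by 1.56 ± 0.20 in KO (adjusted p = 6.47e-05) and 2.34 ± 0.20 in WT (adjusted p = 1.83e-06) on the log2 scale, its groups were far apart, and its 3 WT GFP-positive libraries were close together. Dh44-R1 stood at 39.3, 59.0 and 30.6 in KO GFP-positive libraries and 26.0, 64.9 and 38.6 in WT GFP-positive libraries. In GFP-negative libraries Dh44-R1 stood at 23.3, 29.8 and 10.7 in KO and 18.5, 22 and 16.9 in WT. Dh44-R1 differed by 1.04 ± 0.37 in KO (adjusted p = 0.0443) and 1.04 ± 0.37 in WT (adjusted p = 0.0424) on the log2 scale, and its groups did not overlap, though KO GFP-negative replicate 2 came near the lowest KO GFP-positive library. Its KO call was lost without any 1 of 8 libraries, those other than KO GFP-positive replicate 3, KO GFP-negative replicate 2, WT GFP-positive replicate 1 and WT GFP-positive replicate 2 (adjusted p = 0.0534 to 0.194), and its WT call without any 1 of 7 libraries, those other than KO GFP-positive replicate 2, KO GFP-positive replicate 3, KO GFP-negative replicate 2, KO GFP-negative replicate 3 and WT GFP-positive replicate 1 (adjusted p = 0.0531 to 0.176). Dh31-R, the receptor of the calcitonin-like diuretic hormone 31, averaged 28.5 ± 13.1 in KO GFP-positive, 25.2 ± 21.0 in WT GFP-positive, 16.6 ± 6.99 in KO GFP-negative and 17.8 ± 1.43 in WT GFP-negative cells, and Pdfr, the receptor of the clock peptide PDF, averaged 5.88 ± 1.61 in KO GFP-positive, 6.73 ± 2.79 in WT GFP-positive, 3.34 ± 0.693 in KO GFP-negative and 4.59 ± 1.38 in WT GFP-negative cells. Neither was called in a GFP comparison, although the KO libraries of Pdfr did not overlap.

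Of the ecdysis and pyrokinin receptors, 1 of 6 was called higher in KO and 2 of 6 in WT, near the 23.6% and 25.7% of all tested genes. ETHR, the receptor of ecdysis-triggering hormone, stood at 7.82, 17.6 and 8.66 in KO GFP-positive libraries and 4.52, 9.34 and 4.05 in WT GFP-positive libraries. In GFP-negative libraries ETHR stood at 5.25, 7.32 and 2.27 in KO and 7.04, 4.65 and 7.07 in WT. ETHR differed by 1.07 ± 0.39 in KO (adjusted p = 0.0453) and -0.12 ± 0.39 in WT (adjusted p = 0.832) on the log2 scale, with groups apart in KO and overlapping in WT. Its KO call was lost without WT GFP-positive replicate 1 or WT GFP-negative replicate 1 or KO GFP-negative replicate 1 or KO GFP-positive replicate 2 or WT GFP-negative replicate 3 or KO GFP-negative replicate 3 (adjusted p = 0.0544 to 0.197). CCAP-R, the receptor of crustacean cardioactive peptide, stood at 11, 18.2 and 11.5 in KO GFP-positive libraries and 10.8, 28.2 and 12.8 in WT GFP-positive libraries. In GFP-negative libraries CCAP-R stood at 7.22, 11.3 and 5.93 in KO and 9.26, 7.51 and 7.64 in WT. CCAP-R differed by 0.68 ± 0.32 in KO (adjusted p = 0.121) and 0.89 ± 0.32 in WT (adjusted p = 0.0458) on the log2 scale, with groups apart in WT and overlapping in KO. Its WT call was lost without any 1 of 7 libraries, those other than KO GFP-positive replicate 2, KO GFP-negative replicate 2, KO GFP-negative replicate 3, WT GFP-positive replicate 1 and WT GFP-positive replicate 3 (adjusted p = 0.0538 to 0.198), and a KO call was gained with the replicate block (adjusted p = 0.0311) and without WT GFP-positive replicate 2 (adjusted p = 0.043).

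CapaR, the receptor of capa peptides known from the Malpighian tubule, stood at 4.27, 6.03 and 3.80 in KO GFP-positive libraries and 4.92, 9.89 and 4.98 in WT GFP-positive libraries. In GFP-negative libraries CapaR stood at 2.69, 3.02 and 1.70 in KO and 2.98, 1.32 and 2.93 in WT. CapaR differed by 0.72 ± 0.29 in KO (adjusted p = 0.0755) and 1.14 ± 0.29 in WT (adjusted p = 0.0089) on the log2 scale, its groups did not overlap in either genotype, and a KO call was gained without WT GFP-positive replicate 2 (adjusted p = 0.0453). The pyrokinin receptors were called in no comparison. PK1-R averaged 0.832 ± 0.732 in KO GFP-positive, 1.43 ± 0.311 in WT GFP-positive, 1.16 ± 0.543 in KO GFP-negative and 1.72 ± 0.684 in WT GFP-negative cells. The neighbours PK2-R1 and PK2-R2, 4.163 kb apart on 3R, read hugin-derived peptides; PK2-R1 averaged 14.9 ± 8.93 in KO GFP-positive, 13.3 ± 6.01 in WT GFP-positive, 9.68 ± 5.47 in KO GFP-negative and 10.4 ± 1.13 in WT GFP-negative cells, and PK2-R2 averaged 8.73 ± 4.45 in KO GFP-positive, 9.47 ± 7.13 in WT GFP-positive, 5.30 ± 2.63 in KO GFP-negative and 5.78 ± 0.717 in WT GFP-negative cells.

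CrzR, the receptor of the stress peptide corazonin, stood at 23.8, 42.5 and 26.5 in KO GFP-positive libraries and 19.0, 51.3 and 20.1 in WT GFP-positive libraries. In GFP-negative libraries CrzR stood at 9.66, 13.8 and 6.5 in KO and 10.3, 9.60 and 12.1 in WT. CrzR differed by 1.55 ± 0.35 in KO (adjusted p = 0.00446) and 1.27 ± 0.35 in WT (adjusted p = 0.013) on the log2 scale, without overlap, and its WT ratio of means was 2.83, or 1.84 without WT GFP-positive replicate 2. Of the 4 receptors with a leucine-rich ectodomain, Lgr4 was called in both genotypes and Lgr1, Lgr3 and rk in neither. The share of all tested genes called higher was 23.6% in KO and 25.7% in WT. Lgr4, a receptor of insulin-like peptide 7, stood at 6.03, 13.4 and 10.3 in KO GFP-positive libraries and 14, 17.6 and 12.5 in WT GFP-positive libraries. In GFP-negative libraries Lgr4 stood at 6.39, 5.04 and 4.36 in KO and 8.11, 4.91 and 6.998 in WT. Lgr4 differed by 0.75 ± 0.26 in KO (adjusted p = 0.0391) and 1.04 ± 0.26 in WT (adjusted p = 0.00726) on the log2 scale; its groups were apart in WT and overlapped in KO, where replicate 1 of the GFP-positive group was below replicate 1 of the GFP-negative group. Its KO call was lost without WT GFP-positive replicate 1 or KO GFP-positive replicate 2 or KO GFP-negative replicate 2 or WT GFP-negative replicate 3 or KO GFP-positive replicate 3 or KO GFP-negative replicate 3 (adjusted p = 0.0521 to 0.175). Of the exon bases of Lgr4, 29.2% are shared with CG12096 on the other strand, which averaged 66.4 ± 7.35 in KO GFP-positive, 61.1 ± 3.85 in WT GFP-positive, 58.0 ± 5.28 in KO GFP-negative and 51.5 ± 2.01 in WT GFP-negative cells.

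Lgr1, the receptor of the glycoprotein hormone of Gpa2 and Gpb5, averaged 1.81 ± 0.0997 in KO GFP-positive, 1.65 ± 0.624 in WT GFP-positive, 1.01 ± 0.127 in KO GFP-negative and 1.57 ± 0.718 in WT GFP-negative cells. Lgr3, the receptor of insulin-like peptide 8, which delays metamorphosis after tissue damage, averaged 5.87 ± 2.76 in KO GFP-positive, 9.30 ± 8.20 in WT GFP-positive, 5.24 ± 2.08 in KO GFP-negative and 6.17 ± 1.03 in WT GFP-negative cells, and 34.5% of its exon bases are shared with genes on the other strand. The bursicon receptor rk averaged 2.55 ± 0.846 in KO GFP-positive, 4.37 ± 2.09 in WT GFP-positive, 3.06 ± 0.798 in KO GFP-negative and 4.13 ± 1.85 in WT GFP-negative cells. None of the 3 was called, although the libraries of Lgr1 did not overlap in KO. The log2 change was 0.49 ± 0.24 in KO and 0.06 ± 0.24 in WT for Lgr1, 0.12 ± 0.45 in KO and 0.25 ± 0.45 in WT for Lgr3, and -0.20 ± 0.32 in KO and 0.06 ± 0.32 in WT for rk.

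The receptors moved together between libraries of a group (plot of deviations by library). In KO GFP-positive and in WT GFP-positive cells, replicate 2 held the highest value of 33 of 37 tested receptors. The median receptor lay 0.54 above its group mean on the log2 scale in KO GFP-positive replicate 2 and 0.74 above it in WT GFP-positive replicate 2, while the median over all tested genes deviated by 0.02 in that KO library and 0.03 in that WT library. In KO GFP-negative cells the median receptor lay 0.47 above the group mean in replicate 2 and 0.44 below it in replicate 3, and in WT GFP-negative cells the medians ran from -0.13 to 0.09. Neuron markers moved with it. The highest sum of the 8 genes was in replicate 2 of either group, at 10644 in KO GFP-positive and 10496 in WT GFP-positive cells. Markers of peptidergic neurons summed to 2618, 4346 and 2736 in KO GFP-positive and 2302, 4095 and 2395 in WT GFP-positive libraries. Ligand genes of the receptors summed to 636, 2010 and 798 in KO GFP-positive and 554, 2198 and 758 in WT GFP-positive libraries. The sum of the neuroblast and progenitor list was instead lowest in replicate 2 of both groups. This sum includes pros and brat, which were higher in GFP-positive cells. It averaged 6328 in KO GFP-positive, 7119 in WT GFP-positive, 5167 in KO GFP-negative and 5165 in WT GFP-negative cells. It thus did not follow the genes of the list that were lower in GFP-positive cells. WT GFP-positive replicate 2 is also the library richest in rRNA reads. The part of any of these in the receptor values was not tested.

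The replicate 2 libraries have title numbers 1 to 4, and all were on lane 6. Within that run of titles alone the median receptor was 1.24 higher in KO and 1.61 higher in WT GFP-positive than GFP-negative cells on the log2 scale. It was 1.27 higher in KO and 0.69 higher in WT within titles 5 to 8, and 0.73 higher in KO and 0.57 higher in WT within titles 13 to 16. Receptors higher in GFP-positive cells within all 3 runs numbered 32 of 37 in KO and 24 of 37 in WT. They included 23 of the 24 KO calls and all 21 WT calls, the exception being Lgr4 in KO. The runs hold the same libraries that gave the calls, so this adds no separate support. The share of all tested genes higher within all 3 runs is not given here. Without the 4 libraries of titles 1 to 4, an alternative chosen after seeing the data, 21 receptors were called higher in KO and 16 in WT. The share of all tested genes called in that fit is not given here either.

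**Figure D3:**
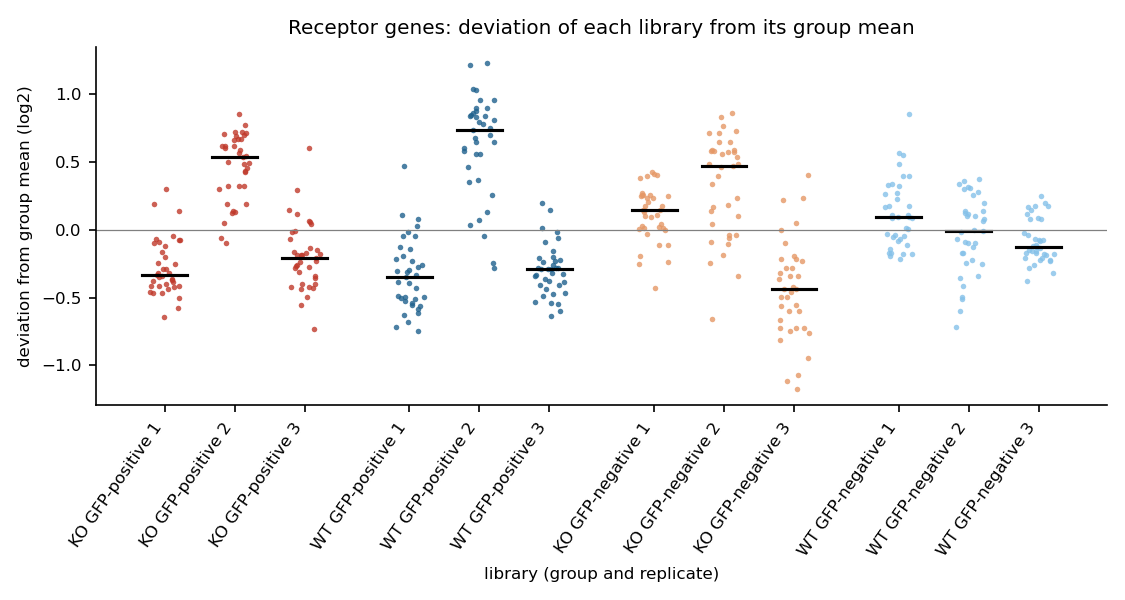
Deviation of each of the 37 tested receptors from its own group mean (log2) in each of the 12 libraries, 1 point per receptor, with the median as a bar. Nearly all points of replicate 2 lie above 0 in both GFP-positive groups, with medians of 0.54 in KO and 0.74 in WT, and most points of KO GFP-negative replicate 3 lie below 0.

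Few receptors stood apart between KO and WT cells beyond the spread of the libraries. In KO GFP-positive against WT GFP-positive cells, 1 of 37 receptors was called, Dh44-R2, which was lower (1.32% of all tested genes were lower, 1.75% higher and 3.07% either). Dh44-R2 (FBgn0033744, 2R, 12474424 to 12487986, plus strand in BDGP6) stood at 59.7, 67.0 and 39.7 in KO GFP-positive libraries, against 119, 113 and 118 in WT GFP-positive libraries. All 3 KO libraries were below all 3 WT libraries, and the KO libraries differed more among themselves. The log2 change was -1.10 ± 0.20 (adjusted p = 0.00818 with limma, 0.0118 with edgeR and 0.000113 with DESeq2). The other tools also called this receptor alone, where edgeR called 3.05% and DESeq2 5.09% of all tested genes. The log2 change of Dh44-R2 was -0.75, -1.55 and -0.99 within titles 1 to 4, 5 to 8 and 13 to 16, and -0.78 on lane 6 and -1.28 on lane 7. The call held without each of the 12 libraries in turn. It was lost without WT GFP-positive replicate 2 and KO GFP-positive replicate 3 together, the pair richest in rRNA reads, at a log2 change of -0.90 (adjusted p = 0.0523, the highest over all alternatives, the lowest being the 0.000113 of DESeq2).

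As a share of the summed value of all 38 receptors, Dh44-R2 made up 5.12% ± 1.19 in KO GFP-positive and 11.03% ± 4.04 in WT GFP-positive cells, and 5.15% ± 1.68 in KO GFP-negative and 5.89% ± 1.32 in WT GFP-negative cells. In GFP-negative cells its values by library were 20.7, 16.4 and 16.5 in KO, against 29.8, 18.7 and 19.9 in WT. These overlap, and the log2 change of -0.31 ± 0.20 was not called (adjusted p = 0.708). The test of the difference between the fractions gave -0.78 ± 0.28 (unadjusted p = 0.0174, adjusted p = 0.741), so the KO difference is not shown to be particular to GFP-positive cells. Of the exon bases of Dh44-R2, 33.2% are shared with CG34234 and fdl on the other strand. Reads of fdl averaged 80.7 ± 12.8 in KO GFP-positive and 76.8 ± 12.1 in WT GFP-positive cells, a log2 change of 0.07 ± 0.16 (adjusted p = 0.973), and CG34234 was not analysed here. The sister receptor Dh44-R1 averaged 43.0 ± 14.6 in KO GFP-positive and 43.1 ± 19.9 in WT GFP-positive cells, and the ligand gene Dh44 averaged 99.5 ± 74.9 in KO GFP-positive and 60.0 ± 53.7 in WT GFP-positive cells. Neither was called between the genotypes.

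In the other direction AstC-R1 came nearest to a call. AstC-R1 stood at 23.7, 19.7 and 18.7 in KO GFP-positive libraries, against 10.6, 8.04 and 11.6 in WT GFP-positive libraries. Each KO library was above each WT library. The log2 change was 0.97 ± 0.31 (adjusted p = 0.164, edgeR 0.284, DESeq2 0.159), positive within each run of titles at 1.20, 0.64 and 1.08 and at 0.95 on lane 6 and 0.92 on lane 7. It was called without WT GFP-negative replicate 1 (adjusted p = 0.014), with the title runs as a replicate block (adjusted p = 0.0310, with Dh44-R2 2 of 37 receptors, where 4.79% of all tested genes were called) and in a fit of the pair of groups alone (adjusted p = 0.0335). Over all alternatives its adjusted p was 0.0140 to 0.418. Its neighbour AstC-R2 averaged 63.0 ± 23.8 in KO GFP-positive and 52.2 ± 36.0 in WT GFP-positive cells, with overlapping libraries and no call (adjusted p = 0.904).

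Besides Dh44-R2 and AstC-R1, CCKLR-17D3 did not overlap between the GFP-positive groups. In all, 1 receptor was higher and 2 were lower without overlap, where 8.16% of all tested genes were higher and 5.94% lower. CCKLR-17D3 stood at 118, 105 and 70.6 in KO GFP-positive libraries, against 122, 127 and 123 in WT GFP-positive libraries, and was not called, at -0.37 ± 0.18 on the log2 scale (adjusted p = 0.526). The highest KO library was close to the WT libraries and the lowest well under them. The other 34 tested receptors overlapped between KO GFP-positive and WT GFP-positive cells. NPFR averaged 71.0 ± 36.3 in KO GFP-positive and 43.3 ± 25.0 in WT GFP-positive cells, a log2 change of 0.73 ± 0.48 (adjusted p = 0.792). ETHR averaged 11.4 ± 5.41 in KO GFP-positive and 5.97 ± 2.93 in WT GFP-positive cells, a log2 change of 0.82 ± 0.39 (adjusted p = 0.513). These 2 were the next highest positive changes after AstC-R1, and their standard errors are wide. The median change of the 37 receptors was -0.10 on the log2 scale, against 0.01 over all tested genes.

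**Figure D4:**
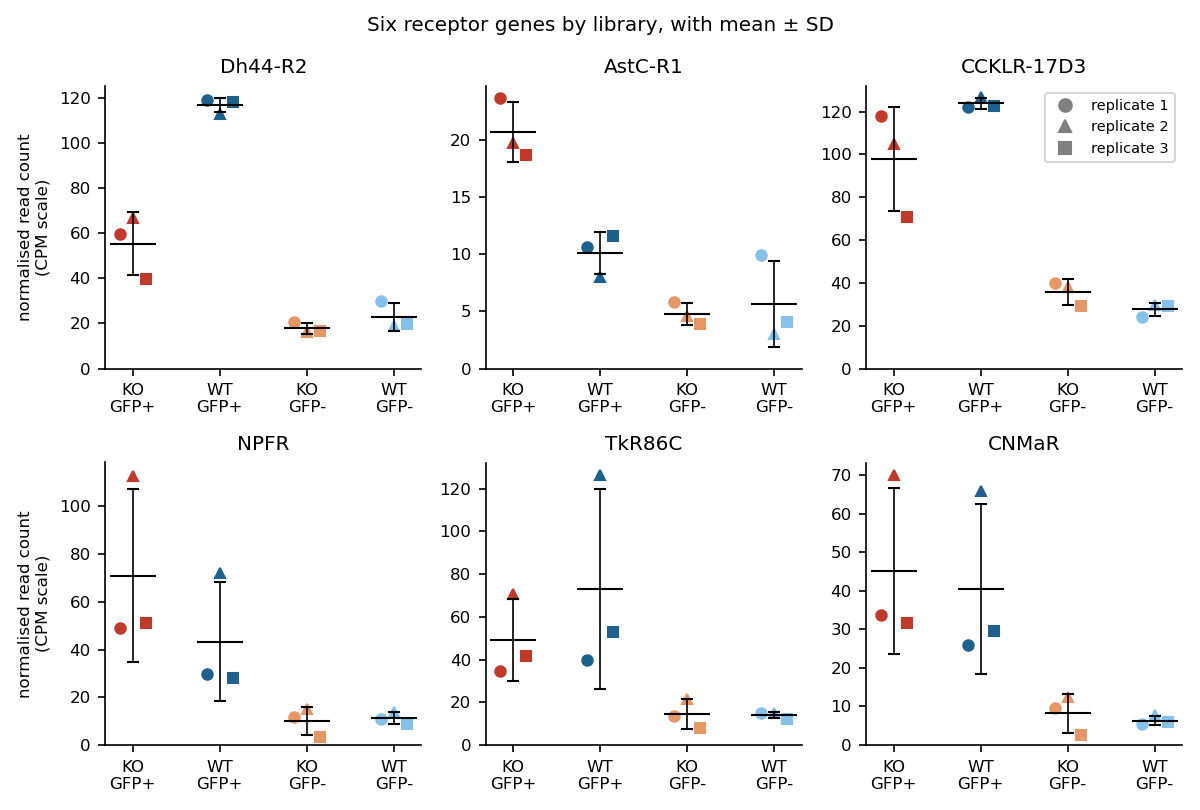
Normalised read count (CPM scale) of Dh44-R2, AstC-R1, CCKLR-17D3, NPFR, TkR86C and CNMaR in each library, with mean ± SD of the 3 libraries of a group in black and the replicate given by the marker. Dh44-R2 is lower and AstC-R1 higher in every KO GFP-positive library than in any WT GFP-positive library, while NPFR, TkR86C and CNMaR show the high replicate 2 (triangles) in both GFP-positive groups.

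Between KO and WT GFP-negative cells 0 of 37 receptors were called (0.686% of all tested genes with limma or edgeR, 1.54% with DESeq2). The count was 0 with all 3 tools and with the replicate block (0.999% of all tested genes), and 1 receptor had an unadjusted limma p under 0.05. That receptor was CCKLR-17D1, at 17.3, 16.1 and 13.5 in KO GFP-negative libraries, against 13, 11.3 and 10.01 in WT GFP-negative libraries. Its KO libraries were all above its WT libraries, as were those of 11.9% of all tested genes, and the log2 change was 0.42 ± 0.18 (adjusted p = 0.606). RYa-R was lower without overlap (4.19% of all tested genes), at 1.57, 2.24 and 2.05 in KO GFP-negative libraries, against 2.74, 2.35 and 2.45 in WT GFP-negative libraries, a log2 change of -0.25 ± 0.22 (adjusted p = 0.773). The median receptor differed by -0.25 on the log2 scale, against 0.04 over all tested genes. The medians within runs of titles disagreed in sign, at 0.30 for titles 1 to 4, -0.57 for titles 5 to 8 and -0.15 for titles 13 to 16.

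**Figure D5:**
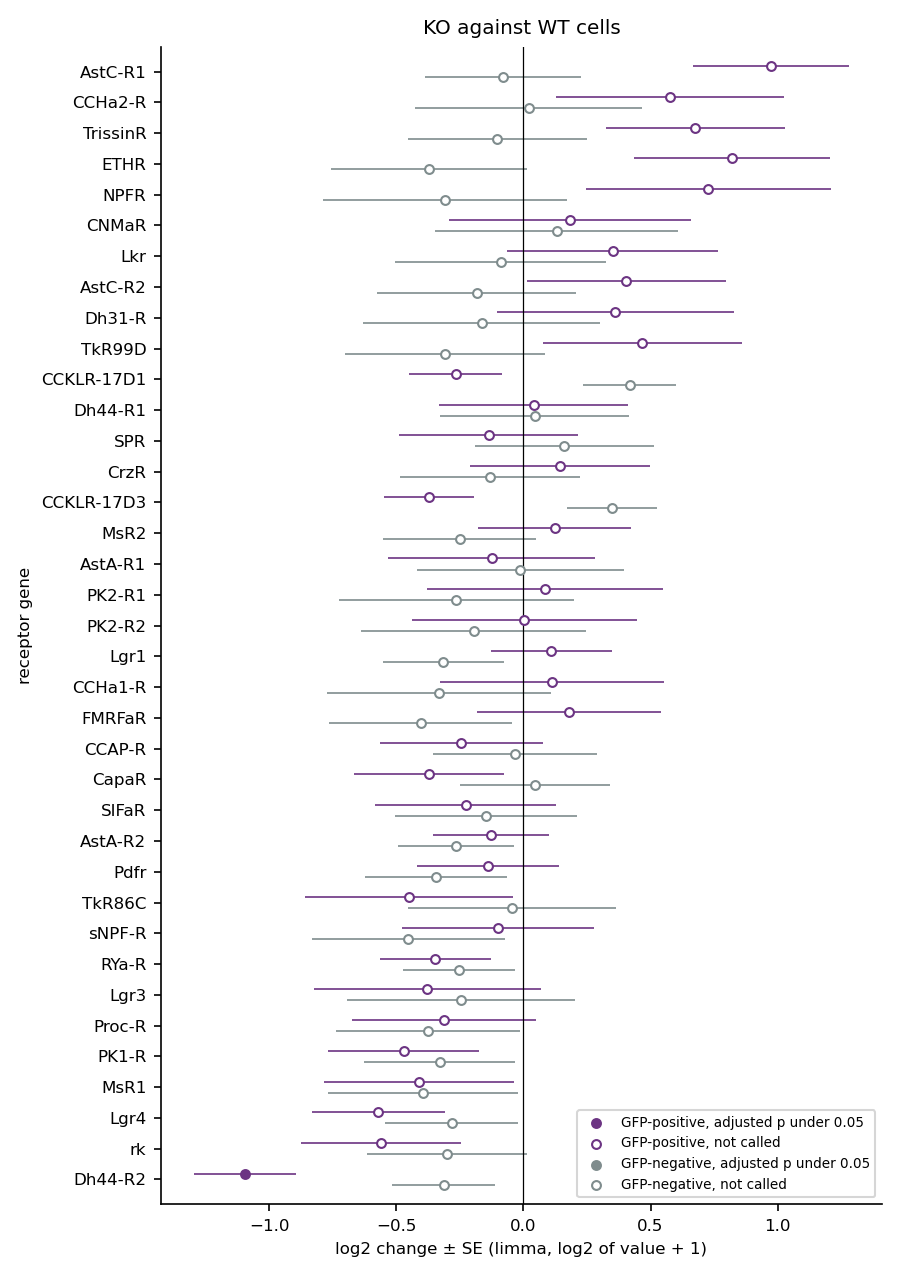
Difference between KO and WT cells for the 37 tested receptors as log2 change ± SE from limma, in GFP-positive (purple, upper) and GFP-negative cells (grey, lower). Dh44-R2 in GFP-positive cells, at -1.10, is the only filled point (adjusted p under 0.05); AstC-R1 lies highest at 0.97 and is not called.

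The ligand genes of these receptors are the other side of the same signals, and their changes were set beside those of the receptors. Of 29 tested ligand genes, 1 was higher and 3 were lower in KO GFP-positive than in WT GFP-positive cells, where 1.75% of all tested genes were higher and 1.32% lower. With edgeR 1 was higher and 1 lower (3.05% of all tested genes either way), and with DESeq2 1 was higher and 5 lower (5.09%). With the title runs as a replicate block 3 were higher and 3 lower (4.79%), the added ones being CCHa2 at a log2 change of 1.35 (adjusted p = 0.0104) and Dh31 at 1.81 (adjusted p = 0.00304). Ms, which encodes myosuppressin, was at 1.46, 39.6 and 1.06 in KO GFP-positive libraries, against 127, 463 and 159.9 in WT GFP-positive libraries, and fell by 5.17 on the log2 scale (SE 0.87, adjusted p = 0.00411). Its receptors were not called: MsR1 averaged 39.9 ± 16 in KO GFP-positive and 55.9 ± 31.4 in WT GFP-positive cells (log2 change -0.41 ± 0.37), and MsR2 averaged 6.47 ± 1.76 in KO GFP-positive and 6.02 ± 2.58 in WT GFP-positive cells (log2 change 0.12 ± 0.30). CCHa1 was at 1.98, 8.42 and 1.37 in KO GFP-positive libraries, against 18.4, 49.3 and 27.2 in WT GFP-positive libraries (log2 change -2.90 ± 0.56, adjusted p = 0.0123). CCHa1-R averaged 13.7 ± 6.92 in KO GFP-positive and 13 ± 8.07 in WT GFP-positive cells and was not called. Every KO library of Ms and CCHa1 was below every WT library. The Ms call held without each library in turn, and the CCHa1 call was lost without KO GFP-positive replicate 1 or replicate 3 (adjusted p = 0.0617 and 0.0662).

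CNMa was at 7.30, 5.64 and 1.61 in KO GFP-positive libraries, against 9.55, 86.3 and 28.4 in WT GFP-positive libraries (log2 change -2.52 ± 0.60, adjusted p = 0.0396). CNMaR averaged 45.1 ± 21.5 in KO GFP-positive and 40.4 ± 22 in WT GFP-positive cells, a log2 change of 0.18 ± 0.48 that was not called. Tk, which encodes the tachykinins, was at 11, 23.7 and 8.11 in KO GFP-positive libraries, against 1.40, 2.55 and 0.594 in WT GFP-positive libraries (log2 change 2.55 ± 0.50, adjusted p = 0.0135). TkR99D averaged 45.4 ± 16.1 in KO GFP-positive and 34.1 ± 17.9 in WT GFP-positive cells, and TkR86C averaged 49.0 ± 19.2 in KO GFP-positive and 72.9 ± 46.7 in WT GFP-positive cells. Neither was called, with log2 changes of 0.47 ± 0.39 for TkR99D and -0.45 ± 0.41 for TkR86C. Every KO library of CNMa was below, and every KO library of Tk above, the WT libraries. The CNMa call was lost without any 1 of 11 libraries, those other than WT GFP-positive replicate 1 (adjusted p = 0.0531 to 0.158). The Tk call was lost without KO GFP-positive replicate 2 or WT GFP-positive replicate 3 (adjusted p = 0.0552 to 0.0688).

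Between GFP-positive and GFP-negative cells 5 of 29 ligand genes were higher and 4 lower in KO, where 23.6% of all tested genes were higher and 12.9% lower. In WT 5 were higher and 7 lower, where the shares of all tested genes were 25.7% and 12.3%. With edgeR 7 were higher and 5 lower in KO and 6 and 6 in WT. The edgeR shares of all tested genes were 19.0% and 16.9% in KO and 19.7% and 15.7% in WT. With DESeq2 9 were higher and 8 lower in KO and 7 and 8 in WT. The DESeq2 shares were 21.8% and 18.7% in KO and 20.7% and 19.2% in WT. The replicate block gave 11 higher and 6 lower in KO (28.6% and 15.3% of all tested genes) and 10 higher and 11 lower in WT (30.6% and 15.2%). It added AstA, Capa, CCHa2, CNMa, Crz, FMRFa, Proc and ITP in KO (adjusted p = 0.000134 to 0.0409) and AstCC, Capa, CCAP, Dh31, FMRFa, Pburs, NPF, Proc and SIFa in WT (adjusted p = 0.00309 to 0.0479). AstC averaged 186 ± 141 in KO GFP-positive, 228 ± 191 in WT GFP-positive, 12.8 ± 9.58 in KO GFP-negative and 13 ± 2.13 in WT GFP-negative cells and was higher in GFP-positive cells of both genotypes, as were its receptors AstC-R1 and AstC-R2. Gpb5, a subunit of the ligand of Lgr1, averaged 54.5 ± 8.71 in KO GFP-positive, 54.4 ± 6.74 in WT GFP-positive, 29.1 ± 3.99 in KO GFP-negative and 29.2 ± 5.34 in WT GFP-negative cells and was also higher in both, while Lgr1 was not called. The log2 change of Gpb5 was 0.88 ± 0.17 in KO (adjusted p = 0.00144) and 0.89 ± 0.17 in WT (adjusted p = 0.00129). Burs and Mip were lower in GFP-positive cells of both genotypes, with Burs at 1.58 ± 0.926 in KO GFP-positive, 1.16 ± 1.55 in WT GFP-positive, 9.95 ± 6.11 in KO GFP-negative and 10.9 ± 8.48 in WT GFP-negative cells. Mip averaged 0.863 ± 0.101 in KO GFP-positive, 2.93 ± 0.823 in WT GFP-positive, 11.9 ± 9.10 in KO GFP-negative and 10.8 ± 7.54 in WT GFP-negative cells, while SPR, which reads the Mip peptides, was higher. The bursicon receptor rk was not called. The KO call on Burs was lost without KO GFP-positive replicate 1 or KO GFP-negative replicate 2 (adjusted p = 0.055 to 0.0564) and the WT call on Mip without WT GFP-positive replicate 1 or WT GFP-positive replicate 2 or WT GFP-negative replicate 2 or WT GFP-positive replicate 3 (adjusted p = 0.05 to 0.128).

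Without the block, NPF, Dh31 and Dh44 were in KO alone called higher and Pburs and CCAP lower in GFP-positive cells, and in WT alone Ms, CNMa and CCHa1 were higher and Tk, Pdf, natalisin, AstA and Crz lower. The difference between genotypes was called for 0 of the 29 ligand genes with limma, with 5 at an unadjusted p under 0.05, for 0 with edgeR and for 1 with DESeq2 (0.555%, 0.535% and 1.17% of all tested genes). With the replicate block it was called for 4 (1.02% of all tested genes), higher for Tk (adjusted p = 0.00854) and Dh31 (adjusted p = 0.0363) and lower for CCHa1 (adjusted p = 0.00841) and Ms (adjusted p = 0.0356). Dh31 averaged 361 ± 219.8 in KO GFP-positive, 118 ± 106 in WT GFP-positive, 45.1 ± 29.6 in KO GFP-negative and 51.1 ± 20.0 in WT GFP-negative cells, and its receptor Dh31-R was called in neither genotype. NPF averaged 37.5 ± 57.3 in KO GFP-positive, 22.6 ± 32.5 in WT GFP-positive, 0.330 ± 0.164 in KO GFP-negative and 0.367 ± 0.191 in WT GFP-negative cells, so ligand and receptor of neuropeptide F were both higher in KO GFP-positive cells. The NPF call was lost without KO GFP-negative replicate 1 or KO GFP-positive replicate 2 or KO GFP-negative replicate 2 or KO GFP-negative replicate 3 (adjusted p = 0.0654 to 0.145) and the Dh44 call without KO GFP-positive replicate 2 or KO GFP-negative replicate 3 (adjusted p = 0.0639 to 0.0651). Crz averaged 15.3 ± 14 in KO GFP-positive, 6.32 ± 4.44 in WT GFP-positive, 38.2 ± 32.1 in KO GFP-negative and 41.2 ± 33.8 in WT GFP-negative cells, and AstA averaged 3.19 ± 1.53 in KO GFP-positive, 4.92 ± 4.13 in WT GFP-positive, 7.58 ± 4.10 in KO GFP-negative and 11.2 ± 1.73 in WT GFP-negative cells. Their receptors CrzR and AstA-R1 went the other way, being higher in WT GFP-positive cells. In WT the Crz call was lost without WT GFP-positive replicate 1 or KO GFP-positive replicate 1 or KO GFP-negative replicate 1 or WT GFP-negative replicate 2 or WT GFP-positive replicate 3 or WT GFP-negative replicate 3 (adjusted p = 0.0516 to 0.13) and the AstA call without WT GFP-positive replicate 1 or WT GFP-negative replicate 1 or KO GFP-negative replicate 1 or WT GFP-negative replicate 2 or WT GFP-positive replicate 3 or WT GFP-negative replicate 3 or KO GFP-positive replicate 3 (adjusted p = 0.0571 to 0.179). The WT call on natalisin was lost without WT GFP-positive replicate 2 or WT GFP-positive replicate 3 or WT GFP-negative replicate 3 (adjusted p = 0.0568 to 0.0861) and that on Pdf without WT GFP-negative replicate 2 (adjusted p = 0.0521). The ligand genes sNPF, CCHa2, Capa, AstCC, RYa and Ilp7 of other called receptors were called in no comparison without the block, and sNPF averaged 173 ± 95.3 in KO GFP-positive, 198 ± 155 in WT GFP-positive, 209.6 ± 51.2 in KO GFP-negative and 155 ± 28.7 in WT GFP-negative cells. Trissin and Dsk were below the floor for testing, and Lk, ETH, Gpa2, Ilp8 and SP were not analysed here.

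Genes that relay these receptors were tested between the sorted fractions too. Of 33 tested G protein subunits, adenylyl cyclases, kinases and regulators, 19 were higher and 2 lower in KO GFP-positive than in KO GFP-negative cells, and 17 higher and 2 lower in WT. Of all tested genes 23.6% were higher and 12.9% lower in KO, and 25.7% and 12.3% in WT. With edgeR 16 of the 33 genes were higher and 2 lower in KO (19.0% and 16.9% of all tested genes). In WT edgeR gave 15 and 3 (19.7% and 15.7%). DESeq2 gave 18 and 2 in KO (21.8% and 18.7%) and 15 and 3 in WT (20.7% and 19.2%). The replicate block gave 24 and 2 in KO (28.6% and 15.3%) and 20 and 3 in WT (30.6% and 15.2%). In the main fit the lower pair was the same in both genotypes: Galphai averaged 9.16 ± 2.29 in KO GFP-positive, 8.02 ± 1.17 in WT GFP-positive, 271 ± 21.0 in KO GFP-negative and 226 ± 17.8 in WT GFP-negative cells, and loco, a regulator of G protein signalling, averaged 16.9 ± 7.77 in KO GFP-positive, 13.3 ± 1.51 in WT GFP-positive, 90.9 ± 9.35 in KO GFP-negative and 78.1 ± 5.4 in WT GFP-negative cells. With the replicate block Pkc53E was also lower in WT, at a log2 change of -0.76 (limma adjusted p = 0.000533, against 0.0546 without the block). Galphai also orients the division of neuroblasts. Galphao, the abundant neuronal G alpha subunit, averaged 1797 ± 287 in KO GFP-positive, 1776 ± 362 in WT GFP-positive, 831 ± 113 in KO GFP-negative and 796 ± 58.4 in WT GFP-negative cells, and krz, the non-visual arrestin, averaged 151 ± 18.2 in KO GFP-positive, 158 ± 19.7 in WT GFP-positive, 99.0 ± 3.46 in KO GFP-negative and 85 ± 2.92 in WT GFP-negative cells; both were higher in GFP-positive cells. Of the same 33 genes, 0 were called between KO and WT GFP-positive cells with limma, with 1 at an unadjusted p under 0.05. With edgeR 0 were called and with DESeq2 1. The shares of all tested genes called were 3.07% with limma, 3.05% with edgeR and 5.09% with DESeq2. With the replicate block Ac76E (adjusted p = 0.00858) and Pkc53E (adjusted p = 0.0245) were higher, where 4.79% of all tested genes were called.

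Among 23 tested receptors of related classes without an assigned peptide in this list, 3 were higher in KO GFP-positive than in WT GFP-positive cells and 0 lower, where 1.75% of all tested genes were higher and 1.32% lower. The replicate block added CG13995 (adjusted p = 0.00741), where 4.79% of all tested genes were called. The class B receptor hec averaged 13.3 ± 7.02 in KO GFP-positive, 4.43 ± 2.52 in WT GFP-positive, 12.7 ± 2.66 in KO GFP-negative and 11.1 ± 1.13 in WT GFP-negative cells, and its log2 change between the genotypes in GFP-positive cells was 1.39 ± 0.34 (adjusted p = 0.0458). This call was lost without any 1 of 10 libraries (adjusted p = 0.0506 to 0.209), those other than KO GFP-positive replicate 1 and WT GFP-positive replicate 2. The Methuselah-like receptor genes mthl8 and mthl14 were higher in KO in both fractions. In GFP-negative cells these were the 2 called of 23, where 0.686% of all tested genes were called. The gene mthl8 stood at 149, 132 and 153 in KO GFP-positive libraries and 1.22, 0.0929 and 0.111 in WT GFP-positive libraries. In GFP-negative libraries mthl8 stood at 114.98, 95.7 and 98.2 in KO and 0.557, 0.0853 and 0.113 in WT. The gene mthl14 averaged 11.5 ± 0.957 in KO GFP-positive, 3.24 ± 0.515 in WT GFP-positive, 6.71 ± 0.575 in KO GFP-negative and 1.87 ± 0.510 in WT GFP-negative cells. Every KO library of mthl8 was far above every WT library, with log2 changes of 6.71 ± 0.25 in GFP-positive and 6.39 ± 0.25 in GFP-negative cells (adjusted p = 2.48e-08 and 4.47e-08). In the same 23 genes Tre1, a receptor of migrating cells, was lower in GFP-positive than in GFP-negative cells of both genotypes, at 4.29 ± 0.809 in KO GFP-positive, 3.89 ± 0.586 in WT GFP-positive, 31.3 ± 1.3 in KO GFP-negative and 32.2 ± 4.21 in WT GFP-negative cells.

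Markers of peptidergic neurons were measured beside the receptors. Of 6 tested, 6 were higher in GFP-positive cells in KO and 4 in WT (23.6% and 25.7% of all tested genes), with summed values of 2618 to 4346 in KO GFP-positive, 2302 to 4095 in WT GFP-positive, 1035 to 1649 in KO GFP-negative and 1167 to 1541 in WT GFP-negative libraries. With the replicate block 6 were higher in KO and 5 in WT (28.6% and 30.6% of all tested genes). Of the 6, dimm, a transcription factor of peptidergic cells, was the 1 called between KO and WT GFP-positive cells (log2 change 1.14 ± 0.24, adjusted p = 0.0185), and averaged 9.20 ± 1.41 in KO GFP-positive, 3.68 ± 1.13 in WT GFP-positive, 3.11 ± 0.144 in KO GFP-negative and 3.57 ± 1.32 in WT GFP-negative cells. Between KO and WT GFP-positive cells 1.75% of all tested genes were higher and 1.32% lower. The dimm call was lost without KO GFP-positive replicate 1 or 3 or WT GFP-positive replicate 1 or 3 (adjusted p = 0.0627 to 0.0940). Of 6 genes of ciliated sensory neurons, nompB, an intraflagellar transport gene, was lower in KO GFP-positive than in WT GFP-positive cells and the other 5 were not called, the summed value of the 6 being 6.29 to 12.03 in KO and 140.2 to 150.9 in WT. That sum includes nompB, so it does not show a change of the other 5. Glial markers had 1 higher and 4 lower of 8 in KO and 1 higher and 3 lower in WT GFP-positive cells. Among all tested genes 23.6% were higher and 12.9% lower in KO, and 25.7% and 12.3% in WT. With the replicate block the glial counts were 1 higher and 5 lower in KO (28.6% and 15.3% of all tested genes). In WT they were 1 and 4 (30.6% and 15.2%). Summed values of the glial markers were 429 to 632 in KO GFP-positive, 448 to 455 in WT GFP-positive, 924 to 1010.0 in KO GFP-negative and 687 to 901 in WT GFP-negative libraries. Of 5 tested hemocyte markers, the basement membrane genes Col4a1 and vkg and the peroxidasin gene Pxn were higher in GFP-positive cells of both genotypes (23.6% of all tested genes in KO and 25.7% in WT), while the defining marker Hml averaged 1.76 ± 1.19 in KO GFP-positive, 2.44 ± 0.616 in WT GFP-positive, 3.1 ± 1.66 in KO GFP-negative and 3.51 ± 1.79 in WT GFP-negative cells and was not called. Hemocyte markers summed to 101 to 260 in KO GFP-positive, 112 to 271 in WT GFP-positive, 47.2 to 79.8 in KO GFP-negative and 30.9 to 59.1 in WT GFP-negative libraries. Of 4 trachea and epidermis markers, vvl and trh were lower in GFP-positive cells of both genotypes (12.9% and 12.3% of all tested genes). Markers of ring gland, fat body and muscle summed to at most 35.7 in any library. The part of these cells in the receptor values was not tested.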

How the data were processed

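RNA of cells sorted by FACS from dissociated larval brains was made into Clontech SMARTer and Illumina Nextera libraries from 4 ng of total RNA, per the labels' protocols; such libraries keep no strand. TopHat2 2.0.13, HTSeq 0.6.1 and edgeR 3.10.5 with genome build BDGP6 are named, without their roles, per the submitters' processing notes. The deposited table holds 1 normalised signal per gene and library, on a scale close to CPM. In every library 100% of the values were whole multiples of what 1 read is worth, within a tolerance of 0.001 reads, so reads were recovered, 20301256 to 29771321 per library. Of the 12610 gene IDs, 12389 matched a symbol.

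Groups came from the labels' genotype and GFP fields. The main test was limma 3.58.1 (limma-trend, R 4.3.3, two-sided) on log2(value + 1) over 9912 genes that reached a value of 1 in 3 or more of the 12 libraries, fitted on all 4 groups, with Benjamini-Hochberg adjustment over all of them and a threshold of 0.05. Every adjusted p comes from this fit unless edgeR (4.0.16, quasi-likelihood) or DESeq2 (1.42.0) on recovered reads is named. On simulated data of the KO against WT GFP-positive comparison it recovered 86% of genes changed 2-fold and 100% of those changed 4-fold. The simulation held no shift shared by the libraries of a run, and changed only better expressed genes. Its rates thus need not hold for the receptors, and a receptor not called may still have changed. Levels were divided by exon length (BDGP6 annotation) where genes are compared with each other. Lane 6 and lane 7 and the runs of title numbers 1 to 4, 5 to 8 and 13 to 16 come from the labels; WT libraries 5 and 6 were on lane 6 and KO libraries 7 and 8 on lane 7, so lane and genotype cannot be fully told apart. The labels do not say what a run of titles marks. Deviations of same-run libraries from their group means correlated over 0.1 in all 12 pairs of the groups compared (0.113 to 0.604), so the runs were taken to pair the libraries; in 6 pairs of groups not compared the correlation was -0.335 to 0.473. The main fit has no block, and values with the runs as a replicate block stand beside the counts and calls they change. Block counts between the sorted fractions are not given for the related receptors or the muscle markers.

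The receptors and all gene lists were chosen with earlier results of these data known. By rule every receptor is named, a receptor called in any comparison is given by library, others by group means, ligand genes are named where they or their receptor are called, and at most 4 genes of each other list are named. Other pseudocounts, floors, scalings, tools and designs, and fits without single libraries, were tried.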

Additional observations from a re-analysis of the deposited data

How the results depend on the processing

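Over all alternatives, the 46 calls on single receptors gave 1193 alternative results, of which 1061 stayed called, 132 lost the call and 0 changed sign. Most alternatives refit nearly the same data. Kept under every alternative were 10 of the 21 WT calls and 15 of the 24 KO calls. The 1 call between KO and WT GFP-positive cells was not. Between KO and WT GFP-positive cells 1 receptor was called, and 2 with the title runs as a replicate block, where the share of all tested genes called was 4.79% against 3.07% without it, or with only the 2 groups in the fit. The count was 0 when both rRNA-rich libraries were dropped, and 1 to 2 with each library left out. In WT the 21 calls became 12 when both rRNA-rich libraries were dropped and 14 to 22 with each library left out. In KO the 24 calls became 16 to 26 with each library left out. Plain CPM gave 19 calls in KO and 16 in WT, and moved the median of all tested genes to -0.13 and -0.18. Quantile normalisation gave 28 and 27, and no filter on low values gave 19 and 19. Lgr4 changed sign in KO within titles 13 to 16, at -0.073 on the log2 scale. Shares of all tested genes called with other scalings, no filter or fewer libraries are not given here. The shifts in count are thus not shown to be particular to the receptors. The cause of these shifts was not tested.

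Same-run libraries correlated at a median of 0.306, and libraries of different runs at -0.133. Deviations within a group sum to 0, so a positive correlation within runs pulls that between runs below 0. The contrast is thus no separate support for the pairing. For the receptors the block lost 0 calls and added AstC-R1 between KO and WT GFP-positive cells, CCAP-R in KO and CCHa1-R, SIFaR and TrissinR in WT; it changed no other call of a receptor. The labels do not say what the runs mark. Depth limits AkhR, PK1-R and Lgr1, which had 4 to 63 reads in any library; no interval was computed, and counting error alone is wide there.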
